A study of Mus musculus with 3 samples.

Results

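Adrenergic receptors are the G-protein-coupled receptors for noradrenaline and adrenaline, the transmitter of sympathetic neurons and its hormone relative. Alpha-1 receptors couple mainly to Gq and raise calcium, alpha-2 receptors couple to Gi and lower cyclic AMP, and beta receptors couple to Gs and raise it. In a sympathetic ganglion the alpha-2 receptors are best known as autoreceptors, by which neurons curb their own noradrenaline release. The genes described here are 8 adrenergic receptor genes, found by symbol among the 52550 genes of the deposited table: Adra1a, Adra1b and Adra1d of the alpha-1 class, Adra2a, Adra2b and Adra2c of the alpha-2 class, and Adrb1 and Adrb3 of the beta class.

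The RNA came from fluorescent cells sorted out of the superior cervical ganglion, the uppermost sympathetic ganglion of the neck, of male mice aged 10 weeks with the genotype LepRCRE::Ai32. In these mice Cre recombinase expressed from the leptin receptor gene switches on a channelrhodopsin joined to yellow fluorescent protein, so a cell is marked by Cre activity at any earlier time as well as at the sort. There was 1 group of 3 libraries, labelled biological replicates, with no unsorted, reporter-negative or wild-type group. By the title of the series these are perineurial cells, which form the barrier sheath around nerve. How many cells or animals stand behind each library was not given in the labels. Levels are in TPM, an abundance scaled to gene length and library total. Of 12 perineurial markers, 11 had a read in at least 1 library, as did all 10 markers of satellite glia and Schwann cells. The background was 52.4% of all genes with recovered reads and 79.1% of the protein-coding ones. A test of the mean over the 3 libraries (limma) called 4 of the 12 and 9 of the 10 above 1 TPM. It called 16.4% of all tested genes above that level. The glial markers summed to 32800, 27700 and 29920 TPM in replicates 1, 2 and 3, and the perineurial markers to 530.1, 769.6 and 467.4 TPM. Fibroblast, endothelial and adipocyte markers summed to 4470 to 6614, 299 to 406.6 and 32.4 to 64.7 TPM, and lymphocyte markers to 0.514 TPM at most, with 4 of 6 unread. Recovered reads totalled 8241693, 8048977 and 7741393.

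Among the 8 genes, reads fell almost wholly on Adra2a and Adra2c. Both were read well in replicate 2, Adra2c also in replicate 1, and neither in replicate 3 beyond a single read. Adra1a and Adra2b had a handful of reads, and Adra1b, Adra1d, Adrb1 and Adrb3 had none in any library. At least 1 read in at least 1 library was found for 4 of the 8 genes, against a background of 52.4% of all genes with recovered reads and 79.1% of the protein-coding ones.

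The coding sequences show how alike the 8 genes are in the part that encodes protein. Reads were counted over longer stretches, of 3801 bases for Adra2a and 3445 for Adra2c. The coding parts are 1395 and 1374 bases. How well reads of the 8 genes can be told apart was not tested. The stretches below, of 45 bases each, centre on the codons of the Asp-Arg-Tyr motif at the inner end of the third transmembrane helix, which these receptors share and which takes part in G-protein coupling. They are shown for the 4 genes with reads and for Adrb1 as a beta receptor, read 5′ to 3′ from the GENCODE M21 transcripts (GRCm38, coding strand), with the 9 motif bases in capitals.
Adra2a: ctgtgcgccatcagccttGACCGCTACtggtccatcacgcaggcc
Adra2c: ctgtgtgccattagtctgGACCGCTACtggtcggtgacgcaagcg
Adra2b: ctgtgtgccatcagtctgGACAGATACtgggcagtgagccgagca
Adra1a: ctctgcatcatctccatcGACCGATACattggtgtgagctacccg
Adrb1: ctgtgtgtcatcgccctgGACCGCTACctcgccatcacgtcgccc

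In this stretch Adra2a matched Adra2c at 36 of 45 bases, Adrb1 at 33, Adra2b at 31 and Adra1a at 23. Over the aligned coding sequence Adra2a and Adra2c were 69.8% identical, the closest pair of the 28 pairs among the 8 genes. Their longest identical run was 26 bases, gagtacaacctgaagcgcacgccgcg, which begins at coding base 463 of Adra2a and at coding base 472 of Adra2c. The longest run shared by any of the 28 pairs was 30 bases, between Adrb1 and Adrb3. The read length was not given in the labels.

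Adra2a encodes the alpha-2A receptor, the main presynaptic brake on noradrenaline release. It lies on chromosome 19, from 54044151 to 54048982 on the forward strand of GRCm38, where M21 annotates it as a single exon. It had 1.16, 44.02 and 0.0275 TPM in replicates 1, 2 and 3, from 11, 428 and 0 reads, so the last value holds only the fraction of a read that the deposited values add to every gene. Replicate 2 stood far above both others, and counting error does not bridge that gap: the exact 95% Poisson interval was 388 to 471 reads in replicate 2 and 5.49 to 19.7 reads in replicate 1. Among the genes with a read in the same library, Adra2a stood at percentile 80.0 in replicate 2 and at percentile 41.2 in replicate 1. Its mean was 15.1 ± 25.1 TPM (SD, n = 3), which on the log2(TPM + 1) scale was 1.21 ± 1.35 (SE) from the value of that scale at 1 TPM and did not pass (limma, adjusted p = 0.528). Without replicate 2 that difference turned to -0.43, and without replicate 3 it was 2.30, short of the threshold in both settings (limma, adjusted p = 0.551 and 0.4999). Without replicate 2 limma called 0 of all tested genes above or below 1 TPM, so that result is not particular to Adra2a.

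Adra2c encodes the alpha-2C receptor, a second presynaptic alpha-2 receptor of sympathetic neurons. It lies on chromosome 5, from 35278319 to 35281763 on the forward strand, also as a single exon. It had 9.12, 20.1 and 0.152 TPM, from 80, 177 and 1 reads. Replicates 1 and 2 were both high and replicate 3 was near 0, and the 95% intervals of 63.4 to 99.6 and 152 to 205 reads did not overlap. Its percentile among genes read in the same library was 61.4, 69.7 and 9.31. The mean of 9.79 ± 9.99 TPM (SD, n = 3) was 1.65 ± 1.02 (SE) above the value at 1 TPM on the log2(TPM + 1) scale, and did not pass either (limma, adjusted p = 0.290). It was 0.77 without replicate 2 and 2.87 without replicate 3, and did not pass in either setting (limma, adjusted p = 0.676 and 0.106). Without replicate 2 no tested gene passed, so that result is not particular to Adra2c either.

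**Figure D1:**
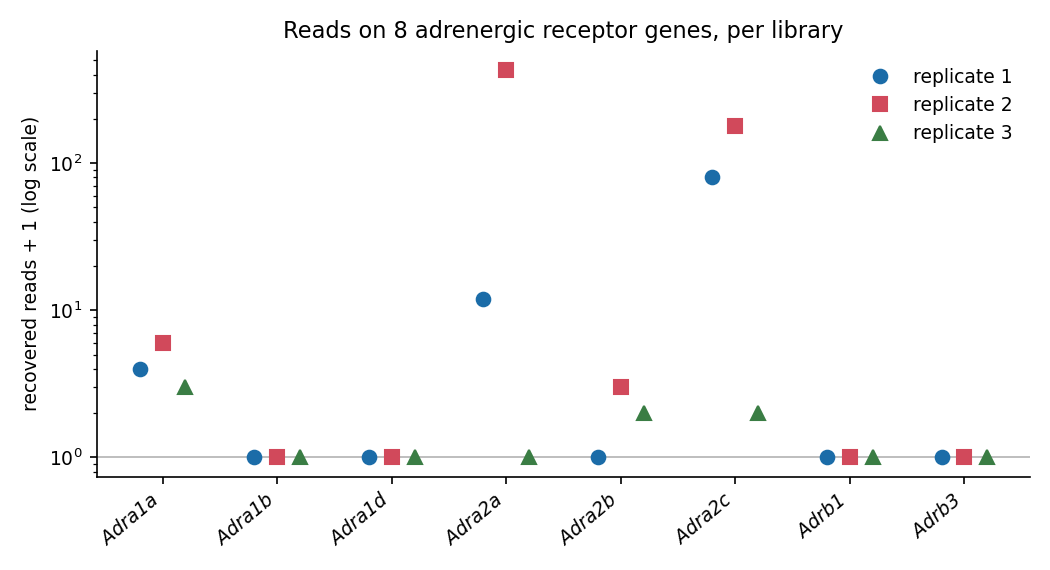
Reads recovered on each of the 8 genes, plotted as reads + 1 on a log axis, with 1 point for each library; a point on the grey line is a library with no read. Adra2a reached 428 reads and Adra2c 177 in replicate 2, while Adra1b, Adra1d, Adrb1 and Adrb3 lie on the line in all 3 libraries.

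The balance of the pair was not the same in every library. Adra2a stood at 2.19 times the TPM of Adra2c in replicate 2 and at 0.127 times in replicate 1. By mean TPM Adra2a led the 8 genes, but by mean log2(TPM + 1) Adra2c was higher, at 2.65 against 2.21 for Adra2a, and it was the higher of the pair in replicate 1, and in replicate 3 by 1 read against none. The mean difference on that scale, Adra2a minus Adra2c, was -0.43 ± 1.68 (SD, n = 3) and did not exceed its spread (exact two-sided sign-flip test, p = 0.75, adjusted over 3 neighbouring pairs 0.75). Leaving out replicate 1 turned it to 0.46.

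Because Adra2a, Adra2b and Adra2c are single-exon genes in M21, reads from spliced RNA, unspliced RNA and genomic DNA look alike on them, and the part of each was not tested. No other annotated gene overlapped them.

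Adra2b, the third alpha-2 gene and the one linked to vessel constriction, lies on chromosome 2, from 127363208 to 127367221 on the forward strand. It had 0, 2 and 1 reads, or 0.219 and 0.130 TPM in replicates 2 and 3. Adra1a, the alpha-1A receptor of smooth muscle, lies on chromosome 14, from 66635251 to 66771168 on the forward strand, and had 0.146, 0.235 and 0.108 TPM from 3, 5 and 2 reads. These are values of a few reads each, and the 95% intervals of Adra1a (0.619 to 8.77, 1.62 to 11.7 and 0.242 to 7.22 reads) overlap in all 3 libraries. Adra1a too had its highest count in replicate 2, but of only 5 reads.

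Both lay below 1 TPM in the fit across all genes, Adra1a by -0.78 ± 0.15 and Adra2b by -0.83 ± 0.15 on the log2(TPM + 1) scale (SE; limma, adjusted p = 0.0417 and 0.0414). That made 2 of the 4 tested receptor genes below the level and 0 above it, where 19.9% of all 27567 tested genes were called below and 16.4% above. At an unadjusted p under 0.05 the counts were also 2 below and 0 above, where 8598 of 27567 genes were below and 5422 above. They were the same with a mean-variance trend in limma, where 9911 of all tested genes were below and 5596 above. The calls below were lost without any 1 of the replicates (limma, adjusted p from 0.0544 to 0.0824 for Adra1a and from 0.0687 to 0.0900 for Adra2b). Both were also lost without mitochondrially encoded genes (limma, adjusted p = 0.0708 for Adra1a and 0.0684 for Adra2b) and against a level of 0.5 TPM (0.211 and 0.194). Adra1a was lost at a pseudocount of 0.1 TPM (limma, adjusted p = 0.0502). Without replicate 1, without replicate 2, without mitochondrially encoded genes and at 0.5 TPM, limma called 0 of all tested genes below. In those settings the loss is not particular to these receptor genes. Without replicate 3, 5141 genes were still called below. The 4 receptor genes without a read were left out of the fit, so these counts do not describe all 8 genes.

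In the order of mean TPM, Adra1a followed Adra2c and Adra2b followed Adra1a. Adra2c exceeded Adra1a by 2.43 ± 2.11 on the log2(TPM + 1) scale (SD, n = 3; exact two-sided sign-flip test, p = 0.25, adjusted p = 0.75). It was higher in replicates 1 and 2, while in replicate 3, with 1 read on Adra2c and 2 on Adra1a, the intervals overlapped and gave no order. Adra1a differed from Adra2b by 0.0505 ± 0.0991 (p = 0.75 by the same exact test, adjusted p = 0.75). With 3 libraries this test cannot give a p under 0.25, so no neighbouring pair could pass. The genes without a read have no order among themselves.

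Adra1b, the alpha-1B receptor of liver and vessel, and Adra1d, the alpha-1D receptor of large arteries, had no read. Nor did Adrb1, the beta-1 receptor that speeds the heart, or Adrb3, the beta-3 receptor of fat cells. On GRCm38 Adra1b lies on chromosome 11, from 43774606 to 43901210 on the reverse strand, and Adra1d on chromosome 2, from 131545850 to 131562283 on the reverse strand. Adrb1 lies on chromosome 19, from 56722199 to 56733113 on the forward strand, and Adrb3 on chromosome 8, from 27225776 to 27250616 on the reverse strand. A count of 0 allows up to 3 reads, which in replicates 1, 2 and 3 would be 0.347, 0.347 and 0.371 TPM of Adra1b and 0.618, 0.617 and 0.660 TPM of Adra1d. The same limit came to 0.471, 0.471 and 0.503 TPM in the case of Adrb1. In that of Adrb3 it came to 0.348, 0.347 and 0.371 TPM. Levels under those limits can be missed at this depth. Such limits and the intervals above cover counting error only, since the reads are PCR copies without molecular identifiers. Adra1d and Adrb3 each overlap an annotated antisense gene, Gm14285 and Gm45470, and the labels do not say whether counting used strand.

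By class, the 3 alpha-2 genes took 91 of the 94 reads on the 8 genes in replicate 1 (96.8%), 607 of 612 in replicate 2 (99.2%) and 2 of 4 in replicate 3. Adrb1 and Adrb3 took none.

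A level that is high in 1 or 2 libraries and near 0 in another was common in this series. Of 3790 genes with a mean from 5 to 20 TPM, the range that holds Adra2a and Adra2c, 1573 had at most 1 read in at least 1 library, a background of 41.5%. The SD of log2(TPM + 1) was 2.89 for Adra2a and 2.18 for Adra2c, against a median of 2.11 and a middle 50% from 1.39 to 2.53 for those 3790 genes. In bulk samples such as these, fewer cells that carry a transcript and less of it per cell cannot be told apart.

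**Figure D2:**
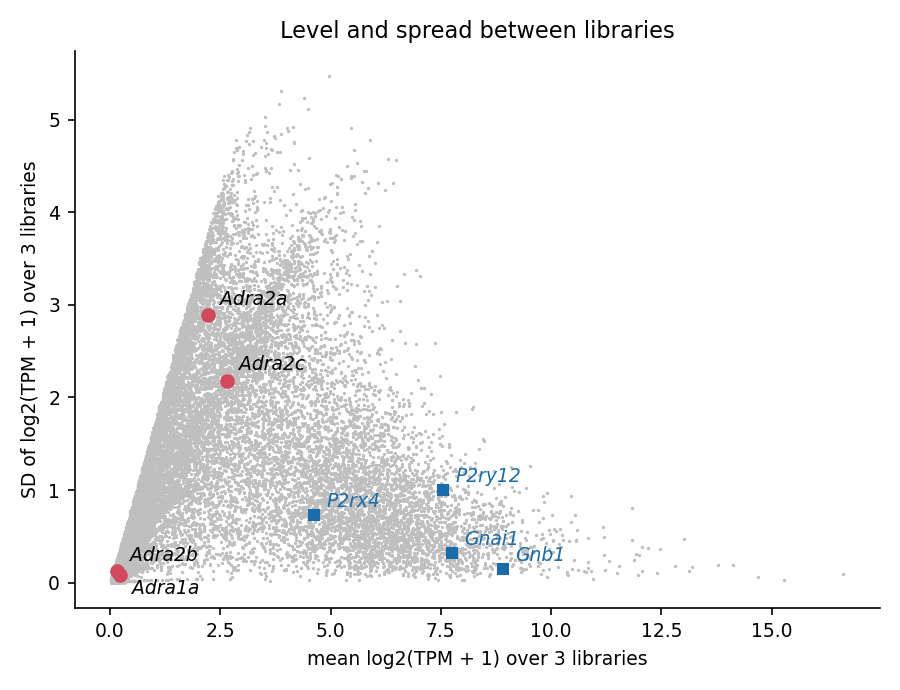
Mean (horizontal) and SD (vertical) of log2(TPM + 1) over the 3 libraries, with every tested gene in grey, the 4 receptor genes with a read as red circles and 4 signalling genes as blue squares. Adra2a and Adra2c, with SDs of 2.89 and 2.18, lie among genes that vary widely between libraries, and Adra1a and Adra2b lie near the origin.

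Markers of other cells in the ganglion were read alongside. Of 10 sympathetic neuron markers, 4, 9 and 7 had a read in replicates 1, 2 and 3, and the list summed to 89.5, 83.7 and 56.5 TPM. Among the 52535 genes with recovered reads, 18080, 18677 and 19205 had a read in those libraries. Npy, a co-transmitter of these neurons, had no read in any library, and Th, the first enzyme of noradrenaline synthesis, had 0, 1 and 4 reads. The neuronal tubulin gene Tubb3 had 0, 243 and 1 reads, so it shared its high library with Adra2a, as did Slc6a2, the noradrenaline transporter, with 0, 102 and 2 reads. Other markers of that list had their highest count elsewhere, such as Snap25, which encodes a protein of synaptic vesicle fusion and had 9, 8 and 381 reads. Of 8 macrophage markers 6 were read in each library, and the list summed to 1.92, 85.3 and 101.6 TPM. Cd68 had 0, 196 and 0 reads. Ptprc, with 3, 89 and 488 reads, and Tyrobp, with 0, 33 and 120 reads, were highest in replicate 3. Lyz2 was too, with 1, 7 and 43 reads. Csf1r had only 3, 5 and 7 reads, Cx3cr1 had 4, 2 and 0, and Adgre1 and C1qa each had 1, 0 and 1. Of the macrophage list limma called 0 above 1 TPM and 1 below. The 10 mural cell markers summed to 498, 354 and 134.6 TPM, with 7, 8 and 9 of them read. Of these limma called 5 above 1 TPM and 2 below. For both lists the background was 16.4% of all tested genes above and 19.9% below. Among the 5 was the smooth muscle actin gene Acta2 with 718, 171 and 67 reads, while Tagln, another marker of smooth muscle, was unread. The markers named here were picked out after their values were seen. The part of these cells in the Adra2a and Adra2c values was not tested.

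The 3 genes whose levels over the 3 libraries lay closest to those of Adra2a, out of 19132 tested genes other than those with provisional Gm or Rik names, were Plpp2, Slc25a45 and Ralgps2, at Euclidean distances of 0.141, 0.233 and 0.233 on the log2(TPM + 1) scale. Plpp2, a lipid phosphatase gene, had 1.01, 41.6 and 0.0632 TPM, and Slc25a45, a mitochondrial carrier gene, had 0.923, 39.3 and 0.0394 TPM. Ralgps2, which encodes an exchange factor of Ral GTPases, had 0.980, 49.3 and 0.112 TPM. With 3 libraries the measure says only that the levels were alike. Among 40 tested receptors for other amines and for sympathetic co-transmitters, the closest was P2ry2, a receptor for ATP and UTP, at a distance of 4.14 and with 0.0249, 1.82 and 0.133 TPM.

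Of 26 receptors for dopamine, serotonin, histamine, acetylcholine and trace amines, 18 had a read, as had 4 of the 8 adrenergic genes. The background was 52.4% of all genes with recovered reads and 79.1% of the protein-coding ones. The median of mean levels was 0.0886 TPM over the 8 and 0.0818 TPM over the 26. Over all 52550 genes of the table it was 0.319 TPM, unread genes included in each case. An unread gene holds only the added fraction of a read divided by its length. These medians thus depend in part on gene length and do not rank the lists by reads. Of the 8 adrenergic genes Adra2a and Adra2c reached 1 TPM in at least 1 library. Among the 26 others the histamine receptor gene Hrh2 did so, with 6.74, 0.214 and 0.0880 TPM, and was named after its values were seen. The share of all genes reaching that level was not determined. Of those 26, 8 had no read and 18 were tested. Of the 18, limma called 0 above and 13 below 1 TPM, against 16.4% and 19.9% of all tested genes. At an unadjusted p under 0.05 the counts were 0 and 15, where 5422 and 8598 of all 27567 tested genes passed. With a mean-variance trend they were 0 and 17, where 5596 and 9911 of all tested genes were called. The difference between the lists was not tested.

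Receptors for ATP, adenosine and neuropeptide Y, which sympathetic neurons release with noradrenaline, included better-read members. Of 23, 22 had a read, against 52.4% of all genes with recovered reads and 79.1% of the protein-coding ones. The median of the 23 was 0.196 TPM. Limma called 4 above 1 TPM and 10 below, against 16.4% and 19.9% of all tested genes. P2ry12, an ADP receptor of microglia and satellite glia, had 219.2 ± 148.2 TPM (SD, n = 3), P2ry14, a receptor for UDP-sugars, 32.02 ± 33.05, and the ATP-gated channels P2rx4 and P2rx7 had 25.7 ± 11.4 and 19.7 ± 5.05 TPM. In each of the 3 libraries P2rx7 was read at 16.4 TPM or more, which neither Adra2a nor Adra2c was.

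The counts for the transducers of the 3 receptor classes and for the other lists are limma calls. They stand against a background of 16.4% of tested genes called above 1 TPM and 19.9% below. For the Gi arm used by alpha-2 receptors, 3 of 9 genes were above 1 TPM and 4 below: the inhibitory subunits Gnai3, Gnai1 and Gnai2 had 231 ± 142, 218 ± 50.6 and 34.7 ± 20.2 TPM (SD, n = 3), and the 4 below were Gnaz, another inhibitory subunit, and the potassium channel genes Kcnj3, Kcnj6 and Kcnj9, whose channels such receptors open in neurons, while Kcnj5 had no read. The genes below or unread were named after their values were seen. Gnai1 was high in all 3 libraries, with 276, 194.8 and 183.6 TPM, and Gnai3 had 263, 355 and 75.9 TPM. Replicate 3, in which Adra2a had no read and Adra2c 1, thus had 1377 reads on Gnai1.

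For the Gq arm used by alpha-1 receptors, 5 of 15 genes were above and 2 below. The leading ones were Gnaq, the alpha subunit itself, at 146 ± 66.5 TPM, the phospholipases Plcb4 and Plcb3 at 67.9 ± 44.3 and 33.5 ± 18.6, and the calcium-release channel Itpr3 at 26.95 ± 12.68 (SD, n = 3). For the Gs arm used by beta receptors, 3 of 18 were above and 3 below, shares near that background, and all 3 of those above were protein kinase A subunits: Prkar1a at 295.5 ± 110.5 TPM, Prkacb at 48.9 ± 9.18 and Prkaca at 6.64 ± 1.74.

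Gnas, the stimulatory subunit, had 0, 80 and 0 reads, or 2.80 TPM in replicate 2. It was picked out after its values were seen. M21 places 5 other annotated genes across its span, among them the antisense gene Nespas, and the labels do not say how reads shared with them were counted, so its level is uncertain.

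**Figure D3:**
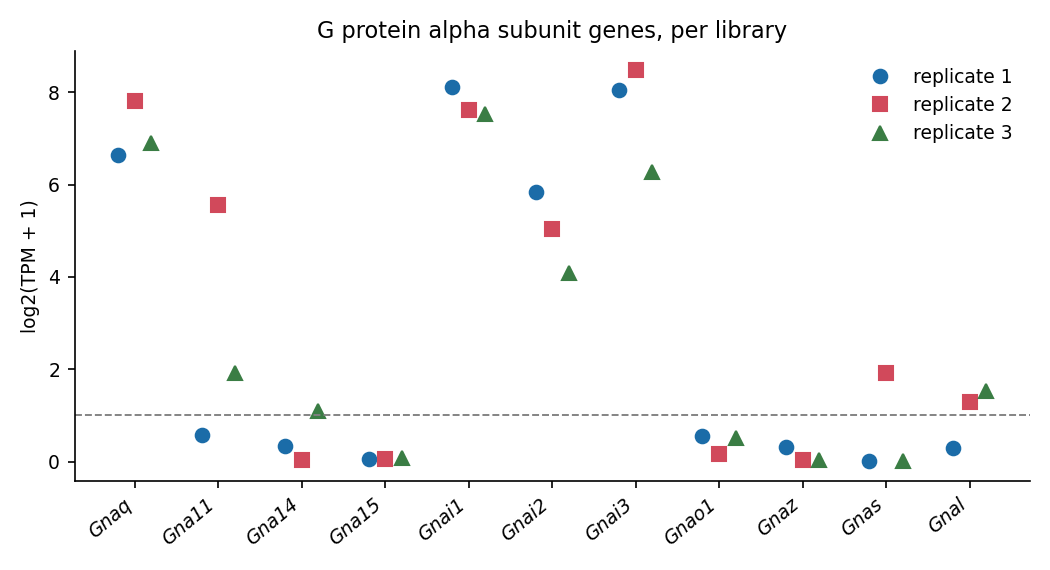
Level in log2(TPM + 1) of the 11 G protein alpha subunit genes in each of the 3 libraries, with the value at 1 TPM as a dashed line. Gnaq, Gnai1, Gnai2 and Gnai3 lie above the line in all 3 libraries, and Gnas rises over it in replicate 2 alone.

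Of 5 beta subunit genes 3 were above and 1 below, led by Gnb1 at 483 ± 48.8 TPM, with Gnb4 at 52.8 ± 27.1 and Gnb2 at 28.1 ± 20.0 (SD, n = 3). Of 7 receptor kinase and arrestin genes, which switch off active receptors, limma called 0 either way, with 1 above and 0 below at an unadjusted p under 0.05 and 1 above at a pseudocount of 0.1 TPM. Of 12 RGS genes, which speed the return of G proteins to rest, 1 was above and 2 below, no more than the background share in either direction, and the 1 above was Rgs5, also a mural cell marker, at 127.5 ± 95.8 TPM.

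Of 10 genes that make, carry or break down noradrenaline, 2 were above and 1 below (4 and 3 with a mean-variance trend in limma). Slc18a2, the vesicular monoamine transporter, had 34.4, 49.1 and 281.5 TPM. It was highest in replicate 3, the library with the fewest reads on Adra2a and Adra2c. Without replicate 1 or replicate 2 limma called 0 of all tested genes above or below 1 TPM (4640 and 4439 above at an unadjusted p under 0.05), so every count of list members is 0 in those settings. Without replicate 3 the count of those above was 0 for the Gq arm, 1 for the beta subunits and 1 for the co-transmitter receptors, and 4 co-transmitter receptors were below.

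**Figure D4:**
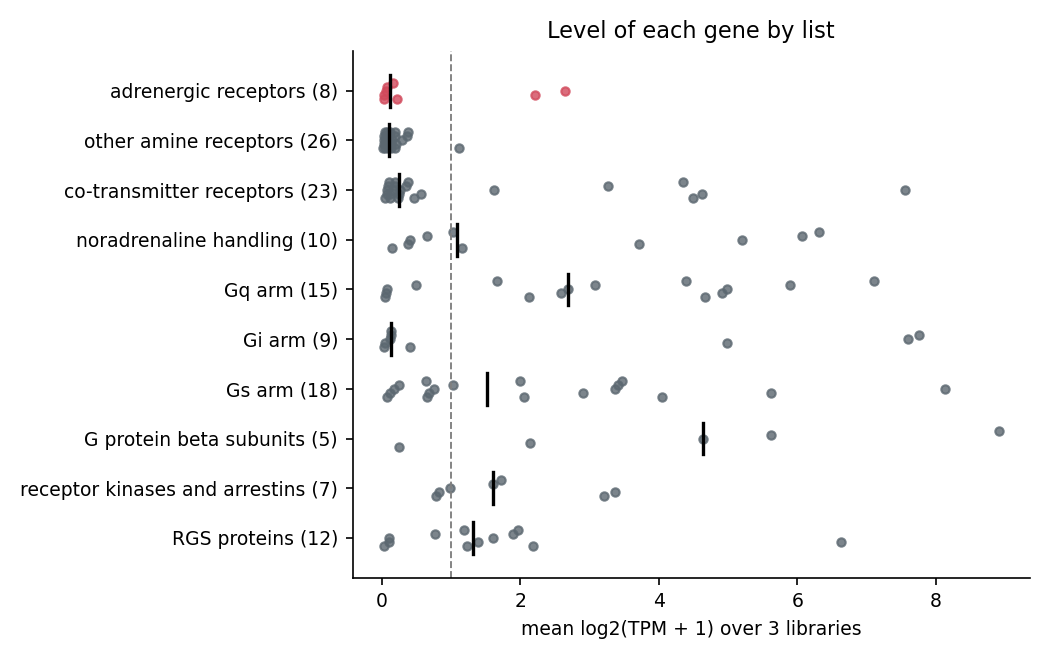
Mean log2(TPM + 1) over the 3 libraries of each gene (points) in the adrenergic receptor list (red) and 9 related lists (grey), with the median of each list as a black bar, the number of genes in brackets and the value at 1 TPM as a dashed line. All 8 adrenergic genes but Adra2a and Adra2c lie left of the line, as do most other amine receptors.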

How the data were processed

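The 3 libraries were made with Smart-Seq2, which copies whole transcripts and amplifies them by PCR, per the labels' protocols. The submitters' processing notes name STAR, featureCounts and the build mm10 (GRCm38). Not given in the sources used here: versions, annotation, strand setting and the step to TPM. Deposited values are log2 TPM, relative to gene length and library total.

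The values equal whole reads plus 0.25 read, divided by length. Exon lengths of GENCODE M21 gave whole reads, within 0.02 of a read, for all 49035 genes with a matching versioned ID, and for 49791 genes once other versions of an ID were allowed. Lengths solved from the values served 2744 more, Adra2a and Adrb1 among them, whose coordinates are those of another ID version. Reads were recovered for 52535 genes (99.97%). For a length of 1 kb, each read came to 0.391, 0.391 and 0.418 TPM, which limits what low values can show.

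The 27567 genes with a read were tested with limma 3.58.1 in R 4.3.3: mean log2(TPM + 1) against its value at 1 TPM, two-sided, Benjamini-Hochberg over all of them, threshold 0.05. This scale shrinks differences between low values. The p-values rest only on spread between these 3 libraries, with each gene's variance drawn toward a value shared by all tested genes. In the mean-variance trend setting the variance came from the trend alone. The fit was tested on simulated data. Neighbouring receptor genes were compared within libraries by an exact sign-flip test. Coding sequences were aligned with Biopython 1.88, and other work used Python 3.11.15.

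All 8 receptor genes are named. For each list, up to 4 genes with the highest mean among those above 1 TPM are named. For the receptor with the highest mean, the 3 nearest genes and the nearest other receptor are named. Exceptions are said to be so. The members and lists were chosen with earlier results of these data known. A further adrenergic receptor gene and some list members are not reported here. Alternatives were 2 pseudocounts, 2 filters, 2 levels, removal of mitochondrially encoded genes, a mean-variance trend and leaving out each replicate.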

Additional observations from a re-analysis of the deposited data

How the results depend on the processing

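No adrenergic receptor gene was called above 1 TPM under any of the 11 alternatives. Without replicate 1 and without replicate 2 no tested gene at all was called above, so those settings say nothing about the receptor genes. The 2 below became 1 at a pseudocount of 0.1 TPM, 6 with no filter, where genes without a read entered, and 0 with a mean of at least 0.5 TPM required, which left out both, with a level of 0.5 TPM or without mitochondrially encoded genes. Without 1 replicate the count of receptor genes below ranged from 0 to 0. Over all genes, the number below, 5491 in the reported fit, was 29850 with no filter, 0 with the filter on the mean, 0 at a level of 0.5 TPM, 11152 at 2 TPM, 0 without mitochondrially encoded genes and 9911 with a mean-variance trend. Without 1 replicate it ranged from 0 to 5141, and the number above, 4531 in all 3, ranged from 0 to 2455. Adra2a against 1 TPM turned to -0.43 without replicate 2 and reached 2.30 without replicate 3. Without replicate 1, Adra2a minus Adra2c turned to 0.46 and Adra1a minus Adra2b to -0.00503, and over the 3 ways of leaving 1 out they ranged from -1.20 to 0.46 and from -0.00503 to 0.0902, and Adra2c minus Adra1a from 1.6 to 3.62. Where no construction is named, the cause was not tested. Depth limits the receptor genes with 5 reads or fewer, for which 1 read moves the value. No paired analysis was possible because there is 1 group.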
